A study of Mus musculus with 16 samples.

Results

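The monocyte-attracting chemokines described here are 5 genes of the 31053 features counted, Ccl2 (ENSMUSG00000035385), Ccl7 (ENSMUSG00000035373), Ccl8 (ENSMUSG00000009185), Ccl12 (ENSMUSG00000035352) and Ccl24 (ENSMUSG00000004814). They were chosen by name, as the mouse CCR2-ligand family with Ccl24 added, and all 5 were counted in every library. Live CD45+ leukocytes were sorted from MC38 colorectal carcinomas or from Panc02-SIY pancreatic adenocarcinomas, a line that carries the model antigen SIY, both grown under the skin of wild-type C57BL/6J mice. Tumors were untreated (NT) or had received 12 Gy of radiation 24 h before harvest (RT), with 4 libraries for each of the 4 groups. The methods name fewer animals per group than there are libraries, and no label ties a library to an animal, so p-values here measure the spread between libraries, which may be technical in part. The comparisons ask whether radiation altered these chemokines in each tumor and whether the tumors differed with and without it.

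CC chemokines are small secreted proteins that bind receptors on leukocytes and direct their movement along a gradient. Ccl2, Ccl7 and Ccl12 are ligands of CCR2, the receptor through which Ly6C-high monocytes leave the bone marrow and enter inflamed tissue and tumors, where many become macrophages. Ccl8 belongs to the same gene cluster and has been described in mouse as a ligand of CCR8. Ccl24, also called eotaxin-2, acts through CCR3 on eosinophils and basophils and is made by macrophages exposed to IL-4.

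Ccl2, Ccl7, Ccl12 and Ccl8 lie in this order on the plus strand of chromosome 11 (GRCm38), Ccl2 at 82035571 to 82037453, Ccl7 at 82045712 to 82047525, Ccl12 at 82101845 to 82103400 and Ccl8 at 82115185 to 82116799. Ccl24 lies apart, on the minus strand of chromosome 5 at 135569937 to 135573049. The annotated Ccl2 gene is overlapped on the other strand by Gm17268, and the other 4 genes overlap no other annotated gene. Transcripts of the 5 genes shared 0 stretches of 31 bases with each other, so that no such stretch of a read could be assigned to the wrong member.

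Ccl12 and Ccl8 are neighbors whose clearest differences below lay in separate comparisons, Ccl12 between the tumors and Ccl8 between macrophages and monocytes. The 250 bases before each RefSeq start (GRCm38.p6, plus strand) are shown 5′ to 3′ with the TATAAA motif in capitals.
Ccl12, chr11:82101595-82101844: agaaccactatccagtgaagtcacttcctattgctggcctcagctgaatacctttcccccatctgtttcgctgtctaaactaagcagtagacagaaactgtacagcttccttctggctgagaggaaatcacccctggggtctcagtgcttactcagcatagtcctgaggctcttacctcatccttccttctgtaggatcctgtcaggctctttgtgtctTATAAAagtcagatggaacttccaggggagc
Ccl8, chr11:82114935-82115184: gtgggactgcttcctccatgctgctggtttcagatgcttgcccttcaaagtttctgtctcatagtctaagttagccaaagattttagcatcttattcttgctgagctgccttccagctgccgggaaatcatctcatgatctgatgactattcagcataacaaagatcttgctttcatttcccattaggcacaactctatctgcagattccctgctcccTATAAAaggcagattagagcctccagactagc
TATAAA, searched on both strands, began 31 bases before the start of Ccl12 and 32 bases before that of Ccl8, and it was found in 12.4% of 32851 mouse promoter windows of this length. Neither window held GAAA repeated after a gap of NN (2.98% of promoters), TTCNNNGAA (7.02%), TGANTCA (6.75%) or the NF-kB motif (3.9%). These are matches of letters and say nothing of which factors bind there.

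Libraries held 28678 barcodes, and sharing of barcodes set the MC38 libraries apart. The 9843 MC38 barcodes were 2632 distinct sequences, of which 1239 (47.1%) occurred in more than 1 MC38 library and 769 in all 8, across NT and RT alike. The median overlap of MC38 libraries taken in pairs was 83.3% of barcodes, against 5.54% for Panc02-SIY pairs. Each barcode was therefore kept only in the library with the most UMIs (unique molecular identifiers, 1 per captured transcript), which left 20756 barcodes and between 1385711 and 43685374 UMIs per library. The edgeR fits of the members were also made without the shared barcodes and with all barcodes. The shares of macrophages with a UMI were repeated with all barcodes only. The other MC38 results rest on the barcodes kept in their richest library, and counts of MC38 libraries are not fully independent.

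Barcodes were assigned to classes by marker genes, and each class name below stands for barcodes that are like that class by these markers. Macrophages (C1qa, Apoe, Csf1r and others) numbered 766 in MC38 NT, 584 in MC38 RT, 2094 in Panc02-SIY NT and 1269 in Panc02-SIY RT, and all 10 macrophage markers were detected in every macrophage sum. Monocytes (Ly6c2, Plac8, Chil3 and others) numbered 188, 303, 216 and 661 in the same order. Macrophages and monocytes are close states, and 220 of their 6081 barcodes (3.62%) had scores within 1.5-fold of the border between them. The gated classes also lay in different places when all barcodes were clustered without the gate. Of the macrophages, 56.1% (MC38 NT) and 53.6% (MC38 RT) lay in cluster 5 and 22.7% and 23.8% in cluster 11, whereas 57.1% (Panc02-SIY NT) and 42.8% (Panc02-SIY RT) lay in cluster 1 and 26.8% and 35.1% in cluster 6. Of the monocytes of Panc02-SIY, 64.4% (NT) and 80.2% (RT) lay in cluster 10, whose own markers were those of monocytes. Those of MC38 lay mainly in clusters 5 (63.8% in NT and 53.8% in RT) and 11 (16.5% and 24.4%), the clusters of the MC38 macrophages, while 4.79% and 6.93% lay in cluster 10. The clustering left out the members. In a ranking of all genes made afterwards, Ccl8 was among the leading genes of cluster 1, Ccl12 of cluster 5 and Ccl24 of cluster 10. The MC38 monocytes below are thus barcodes with monocyte markers inside macrophage clusters, and comparisons of a class between the tumors set different clusters side by side. Macrophage depth differed between tumors, with median UMIs per barcode between 7769 and 23424 in MC38 libraries and between 1107 and 7912 in Panc02-SIY libraries.

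Where the chemokines were found depended on the tumor. Levels are given as CPM, the UMIs of a gene per 1000000 UMIs of the class in 1 library. In MC38 tumors Ccl2 was highest in monocytes and macrophages, which did not separate, with 529 to 2633 CPM (median 1214) and 774 to 2035 CPM (median 1173) over 8 libraries. T cells and NK cells of MC38 tumors, not known as main sources, held 19.1 to 104 and 17.4 to 116 CPM of Ccl2, and these likewise overlapped. In Panc02-SIY tumors the order was mast cells and basophils (966 to 6208 CPM in the 5 libraries with at least 10 such barcodes), monocytes (134 to 373), and macrophages (62.0 to 80.1). These 3 ranges were apart from each other, while that of dendritic cells, 8.5 to 79.9 CPM, overlapped the macrophages. T cells of Panc02-SIY tumors were at 0 to 3.06 CPM, so the floor of Ccl2 outside its main classes was itself lower than in MC38. Whether RNA released from other cells set the T cell values was not tested.

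**Figure D1:**
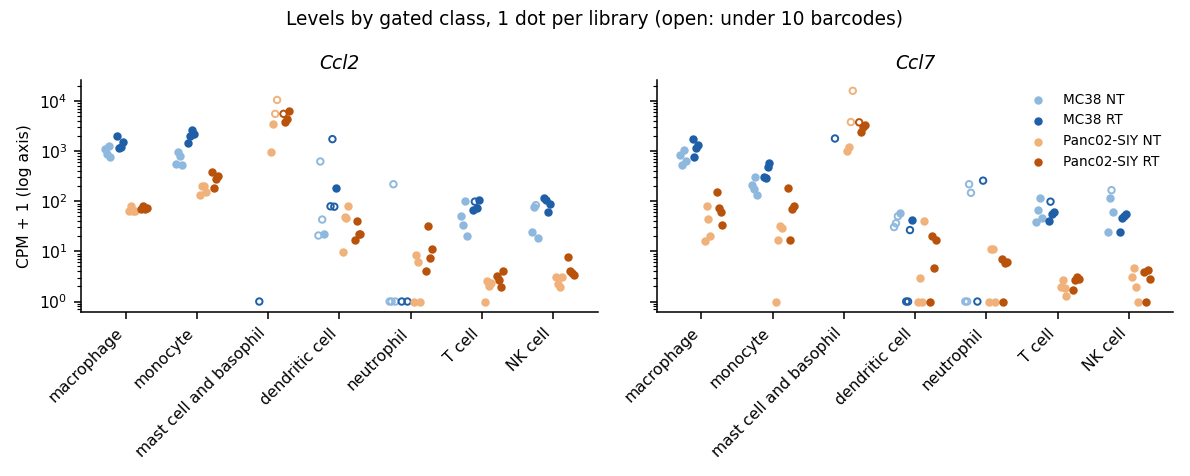
Level of Ccl2 (left) and Ccl7 (right) in 7 marker-gated classes, as CPM + 1 on a log axis, with 1 dot per library, colors for the 4 groups and open dots for fewer than 10 barcodes. In Panc02-SIY tumors mast cells and basophils lie above all other classes for both genes, while in MC38 tumors macrophages and monocytes lead among the filled dots.

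Ccl7 shared the Ccl2 order in part. It reached 534 to 1746 CPM in MC38 macrophages and 131 to 566 CPM in MC38 monocytes, and 15.3 to 152 and 0 to 186 CPM in those of Panc02-SIY, where mast cells and basophils held 980 to 3257 CPM. Ccl8, by contrast, was a macrophage transcript in both tumors, at 50.5 to 507 CPM in MC38 and 65.3 to 925 CPM in Panc02-SIY macrophages against at most 27.9 CPM in any monocyte sum. The macrophage and monocyte ranges of Ccl8 did not overlap in either tumor. Ccl12 had its higher median in macrophages in both tumors (410 to 1620 CPM in MC38, 13.9 to 57.4 CPM in Panc02-SIY), but its monocyte ranges of 45.6 to 647 CPM in MC38 and 0 to 50.7 CPM in Panc02-SIY overlapped theirs. Ccl24 did not separate macrophages from monocytes in either tumor, with 1.15 to 327 and 4.43 to 351 CPM in MC38 and 22.8 to 208 and 0 to 871 CPM in Panc02-SIY.

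The share of each gene's UMIs held by a class combines the number of barcodes, their depth and the level. Over the 4 pooled libraries of a group, macrophages held 87.0% of the 19024 Ccl2 UMIs of MC38 NT and 59.7% of the 25947 of MC38 RT, while monocytes held 11.9% and 38.8%. In Panc02-SIY, macrophages held 30.8% of 3357 Ccl2 UMIs in NT and 12.5% of 6326 in RT, and monocytes 12.7% and 30.3%. The NT value of macrophages followed NT library 4, the deepest, without which it was 17.6%, and the medians over libraries were 18% in NT and 11.7% in RT. Mast cells and basophils, which were 40 barcodes in NT and 58 in RT, held 41.7% and 52.3% of these UMIs. The NT value was 26.9% without NT library 2 and 62.1% without NT library 4, and the RT value 41.5% without RT library 4. Mast cells and basophils also held 54.2% and 62.0% of the Ccl7 UMIs of Panc02-SIY tumors.

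Macrophages held most Ccl8 in every group, from 82.9% of its UMIs in Panc02-SIY NT to 98.4% in MC38 NT. For Ccl12 the macrophage share was 95.4% in MC38 NT, 83.2% in MC38 RT, 85.9% in Panc02-SIY NT and 59.6% in Panc02-SIY RT. Ccl24 moved between the classes in opposite ways, the monocyte share being 14.8% in Panc02-SIY NT and 57.5% in Panc02-SIY RT but 63.4% in MC38 NT and 17.1% in MC38 RT. The Panc02-SIY NT share was 5.18% without library 2 and 23.7% without library 4, and the MC38 RT share was 11.1% without library 3. The MC38 NT share, of 543 UMIs, was 85.8% without library 1 and 43.0% without library 2. These shares were not tested.

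**Figure D2:**
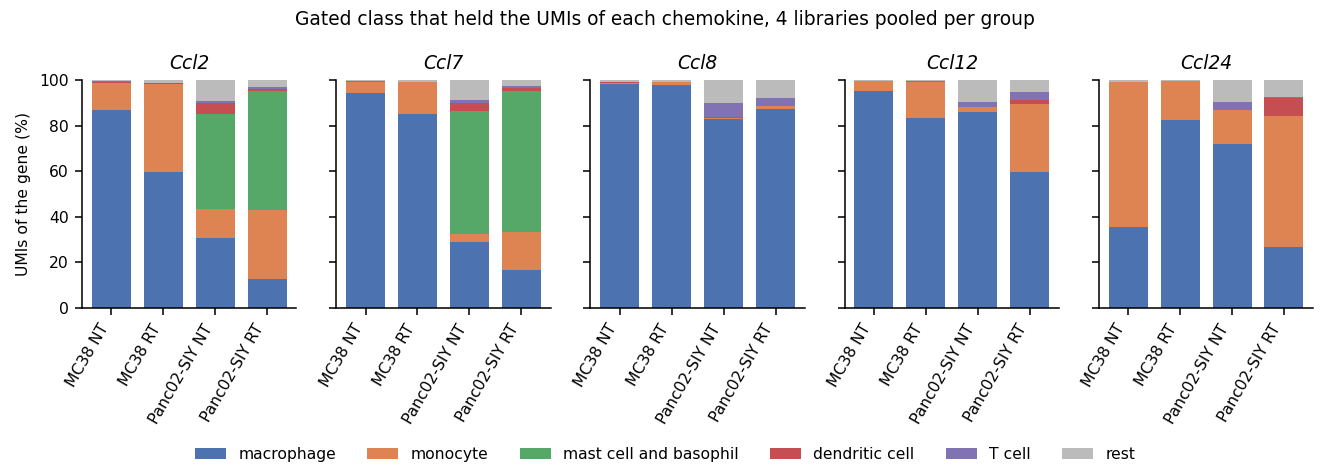
Share of the UMIs of each chemokine (percent, 4 libraries pooled per group) that lay in each marker-gated class, with 1 stacked bar per group. Mast cells and basophils take a large share of Ccl2 and Ccl7 in Panc02-SIY tumors (41.7% and 54.2% in NT) and almost none of Ccl8, Ccl12 or Ccl24.

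The mast cell and basophil class was described after its values were seen. It numbered 99 barcodes, 98 of them from Panc02-SIY tumors. Ccl2 was at 966, 3482, 5513 and 10432 CPM in the 4 Panc02-SIY NT libraries and at 5517, 3729, 4274 and 6208 CPM in the RT libraries, and the NT range enclosed that of RT. Ccl7 was at 980, 1178, 3781 and 15883 CPM in NT and at 3735, 2368, 3034 and 3257 CPM in RT. The extremes came from small sums, since 3 of the 8 libraries had fewer than 10 such barcodes. In the libraries with at least 10, Ccl2 was at 966 and 3482 CPM in NT and at 3729 to 6208 CPM in RT. Ccl7 was there at 980 and 1178 CPM in NT and at 2368 to 3257 CPM in RT, so RT lay above NT for both. These libraries were not tested apart. Pooled, 29 of 40 NT and 53 of 58 RT barcodes held Ccl2, and 15 and 44 held Ccl7, without a test. Over all 8 libraries, the small sums included, no difference with radiation was detected for Ccl2 (mean 4932 ± 1133 CPM in RT against 5098 ± 4013 in NT, SD, n = 4 libraries, exact two-sided permutation p = 1.0) or for Ccl7 (3098 ± 568 against 5455 ± 7068 CPM, exact two-sided permutation p = 0.886). Ccl8, Ccl12 and Ccl24 had at most 1 UMI each in this class in either group.

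The barcodes of this class carried the transcripts of mast cells more than those of basophils. Of 40 NT barcodes, 38 held Cpa3 (mast cell carboxypeptidase) and 34 held Mcpt1 (a mast cell protease), against 7 with Mcpt8, the basophil protease. Cpa3 and Mcpt8 were themselves among the markers that defined the class, and Mcpt1 was not. Among the 86 barcodes with Cpa3 and without Mcpt8, Ccl2 was at 5109 CPM and Ccl7 at 3162 CPM. The 11 barcodes with Mcpt8 held 2073 CPM of Ccl2 and 228 CPM of Ccl7. These are pooled values with no replicate error.

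Among the members, untreated macrophages of the 2 tumors, which lay mainly in clusters 5 and 11 in MC38 and in clusters 1 and 6 in Panc02-SIY, differed in the CCR2 ligands. Ccl2 was at 1097, 857, 1245 and 774 CPM in the 4 MC38 NT libraries and at 64.2, 79.4, 62.0 and 62.1 CPM in the 4 Panc02-SIY NT libraries. Every MC38 library was above every Panc02-SIY library, and the fitted ratio was 15.9-fold (log2 3.99, SE 0.20, edgeR adjusted p = 2.18e-11). Ccl12 was at 524, 410, 1187 and 594 CPM against 18.3, 24.7, 17 and 13.9 CPM, a 41.1-fold difference (log2 5.36, SE 0.41, edgeR adjusted p = 2.63e-07). This was the largest ratio of the 5, again with no overlap. Ccl7 was at 834, 534, 1057 and 636 CPM against 15.3, 78.7, 43.1 and 19.0 CPM, a 19.8-fold difference (log2 4.31, SE 0.56, edgeR adjusted p = 4.65e-05). Its Panc02-SIY libraries were more spread than those of Ccl2, but they stayed under every MC38 library.

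Ccl8 and Ccl24 did not follow. Ccl8 was at 236, 307, 101 and 146 CPM in MC38 NT and at 309, 324, 219 and 65.3 CPM in Panc02-SIY NT macrophages, and the ranges overlapped (log2 -0.06, SE 0.69, edgeR adjusted p = 0.96). Ccl24 was at 43.1, 13.5, 1.83 and 1.15 CPM in MC38 NT and at 42.8, 146, 22.8 and 36.8 CPM in Panc02-SIY NT, a difference that did not pass (log2 -2.20, SE 1.20, edgeR adjusted p = 0.156). So 3 of the 5 members were called higher in MC38, where 23.4% of the 10155 genes tested were, and 15.8% of genes had all MC38 libraries above all Panc02-SIY libraries.

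Of the 753 genes called higher by radiation in MC38 macrophages, 3 were members, Ccl2, Ccl12 and Ccl24. Calls needed an adjusted p under 0.1 together with more than 1.3-fold change, and they covered 7.42% of the 10155 genes tested as higher here. Ccl2 was at 2035, 1142, 1204 and 1540 CPM in the 4 RT libraries, against 1097, 857, 1245 and 774 CPM in NT. The highest NT library lay above both of the lower RT libraries, so the groups overlapped, as they did for every member here (5.93% of genes had all RT libraries above all NT libraries), and the fitted rise was 1.61-fold (log2 0.69, SE 0.17, edgeR adjusted p = 0.0126). Ccl12 was at 1620, 945, 979 and 1176 CPM against 524, 410, 1187 and 594 CPM, and 1 NT library lay above 3 of the RT libraries. Its fitted rise was 1.87-fold (log2 0.90, SE 0.31, edgeR adjusted p = 0.0839).

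The third called member, Ccl24, was uneven within both MC38 groups. It was at 308, 14.7, 327 and 26.7 CPM in RT and at 43.1, 13.5, 1.83 and 1.15 CPM in NT macrophages (log2 3.69, SE 1.17, edgeR adjusted p = 0.0674). Only RT libraries 1 and 3 were above all NT libraries. Without RT library 1 the adjusted p was 0.136 and without RT library 3 it was 0.203. The call was also lost without NT library 2 (0.139), 3 (0.161) or 4 (0.152).

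Ccl7 and Ccl8 had positive fitted differences in MC38 macrophages that did not pass. Ccl7 was at 1746, 765, 1175 and 1319 CPM in RT against 834, 534, 1057 and 636 CPM in NT (log2 0.81, SE 0.46, edgeR adjusted p = 0.31). Ccl8 was at 50.5, 416, 507 and 276 CPM in RT against 236, 307, 101 and 146 CPM in NT (log2 0.82, SE 0.67, edgeR adjusted p = 0.506). RT library 1 held the lowest Ccl8 of all 8 libraries and the highest Ccl2, Ccl7 and Ccl12.

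The MC38 calls depended on how shared barcodes were treated. Without barcodes found in more than 1 library, the log2 differences were 0.41 for Ccl2 (edgeR adjusted p = 0.616), 0.56 for Ccl12 (0.655) and 0.94 for Ccl24 (0.936), and none passed. With all barcodes in every library, Ccl2 passed at log2 0.44 (edgeR adjusted p = 0.0279), and Ccl12 (0.56, 0.106) and Ccl24 (1.89, 0.172) did not. Ccl2 stayed called when any 1 library was left out (log2 0.50 to 0.82), and Ccl12 lost its call without NT library 1, 2 or 4 or any 1 RT library (edgeR adjusted p of 0.102 to 0.206). With NT and RT of MC38 fitted alone, Ccl2 had log2 0.67 and an edgeR adjusted p of 0.104. The summed monocyte markers in these macrophages were 828 to 897 CPM in NT and 1103 to 1654 CPM in RT, all 7 markers being detected in every library. With barcodes near the border between the classes removed, Ccl2 kept log2 0.71 (edgeR adjusted p = 0.0494), while Ccl12 did not pass (0.92, 0.108).

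In Panc02-SIY macrophages no member passed in edgeR and 1 did in DESeq2, where edgeR called 2.12% of genes higher and 1684 genes had an unadjusted p below 0.05. Ccl12 came nearest, at 57.4, 30.4, 51.2 and 44.6 CPM in RT against 18.3, 24.7, 17 and 13.9 CPM in NT (log2 1.31, SE 0.41, edgeR adjusted p = 0.119). Every RT library was above every NT library, as for 2.8% of the genes tested. Ccl12 passed both with all barcodes (edgeR adjusted p = 0.00808) and without shared ones (0.0666). The summed monocyte markers in these macrophages were 160 to 254 CPM in NT and 264 to 495 CPM in RT, with 5 to 7 of 7 markers detected, and their part in the Ccl12 values was not tested.

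Ccl2 was at 68.4, 80.1, 68.1 and 71.7 CPM in RT against 64.2, 79.4, 62.0 and 62.1 CPM in NT Panc02-SIY macrophages (log2 0.11, SE 0.20, edgeR adjusted p = 0.865). The 8 values spanned 62.0 to 80.1 CPM, the narrowest range of any member. Ccl8 was at 925, 342, 503 and 198 CPM in RT against 309, 324, 219 and 65.3 CPM in NT (log2 1.11, SE 0.70, edgeR adjusted p = 0.466), and Ccl24 at 208, 193, 183 and 100 CPM against 42.8, 146, 22.8 and 36.8 CPM (1.33, SE 1.07, 0.598). For both the ranges overlapped through 1 or more libraries. Ccl7 was at 152, 73.5, 59.1 and 31.9 CPM against 15.3, 78.7, 43.1 and 19.0 CPM (log2 0.71, SE 0.57, edgeR adjusted p = 0.60).

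**Figure D3:**
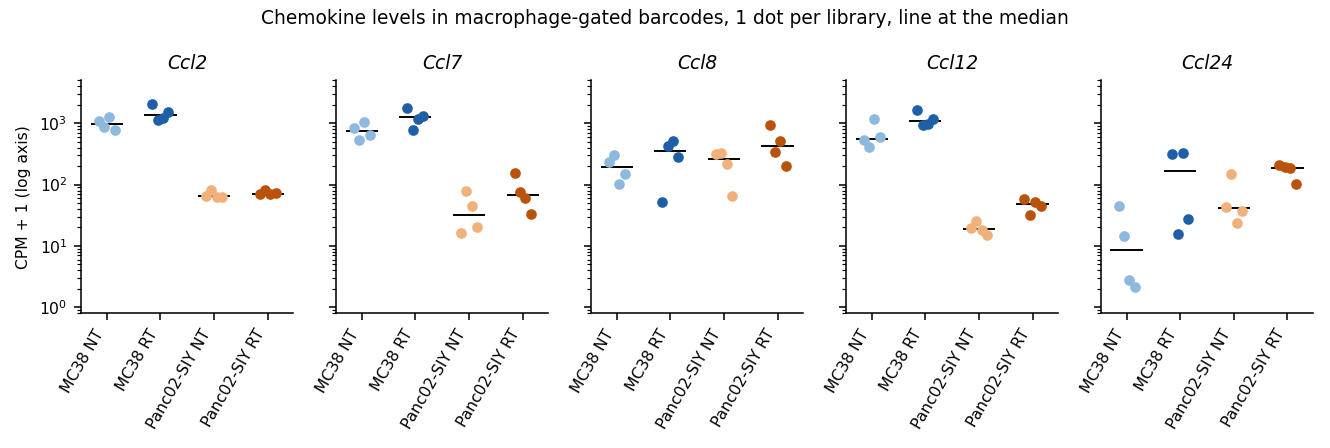
Level of each chemokine in macrophages (CPM + 1, log axis), with 1 dot per library and a line at the median of the 4 libraries of each group. Ccl2, Ccl7 and Ccl12 stand higher in all 8 MC38 libraries than in all 8 Panc02-SIY libraries, while the Ccl8 ranges of the tumors overlap (50.5 to 507 CPM in MC38 and 65.3 to 925 CPM in Panc02-SIY).

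After radiation the tumors differed in the same 3 members. In RT macrophages Ccl2 was 23.7-fold higher in MC38 than in Panc02-SIY (log2 4.57, SE 0.20, edgeR adjusted p = 4.64e-12), Ccl7 21.3-fold (4.41, SE 0.56, 3.78e-05) and Ccl12 30.8-fold (4.95, SE 0.38, 3.53e-07). Every MC38 library was above every Panc02-SIY library for these genes, as for 12.2% of genes, and 24.8% of all genes tested were called higher in MC38. Ccl8 (log2 -0.35, SE 0.67, edgeR adjusted p = 0.706) and Ccl24 (0.16, SE 1.01, 0.917) did not pass. Without shared barcodes the 3 log2 differences were 3.36 for Ccl2, 3.1 for Ccl7 and 3.24 for Ccl12 in RT and 3.18, 3.03 and 3.97 in NT, all with edgeR adjusted p of 0.00118 or less. In the same fit Ccl8 was called lower in MC38 (log2 -1.83, edgeR adjusted p = 0.092 in NT and -2.30, 0.0407 in RT), and Ccl24 was called lower in RT (-3.02, 0.0377). MC38 macrophages were also deeper and the T cells of MC38 carried more of these transcripts. Shares of macrophages were compared between the tumors at equal depth below, and the part of depth or T cell values in the fitted differences was not tested.

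The size of the radiation difference was compared between the tumors by an interaction term. No member passed in macrophages, where 1 of 10155 genes did (0.00985%) and 649 had an unadjusted p below 0.05. Ccl2 had a log2 rise greater by 0.58 in MC38 (SE 0.26, edgeR adjusted p = 0.768). A difference between the tumors in the radiation effect on Ccl2 was therefore not shown.

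The share of macrophages with a UMI of a chemokine was compared after thinning each barcode to 1000 UMIs, which left out 107, 77, 543 and 345 shallower barcodes of MC38 NT, MC38 RT, Panc02-SIY NT and Panc02-SIY RT. Ccl2 was found in 35.4% ± 4.53 of MC38 NT and 46.1% ± 5.10 of MC38 RT macrophages (SD, n = 4 libraries, exact two-sided permutation p = 0.0571, adjusted p = 0.0952 over 20 tests). In Panc02-SIY it was found in 4.23% ± 1.44 and 5.85% ± 0.468 (exact permutation p = 0.143, adjusted p = 0.19). Ccl12 was the one member whose RT libraries all lay above the NT libraries in both tumors, 33.2% ± 2.48 against 22.0% ± 2.98 in MC38 and 5.60% ± 0.988 against 3.26% ± 1.35 in Panc02-SIY (exact permutation p = 0.0286, adjusted p = 0.0714 for each, the smallest p that 4 against 4 libraries can give being 0.0286). In Panc02-SIY the groups barely parted, the lowest RT share being 4.3% and the highest NT share 4.29%. How many other genes part in this way was not counted.

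Ccl7 was found in 25.0% ± 4.46 of MC38 NT and 32.2% ± 1.87 of MC38 RT macrophages, and in 2.65% ± 1.19 and 5.56% ± 2.15 of those of Panc02-SIY (exact permutation adjusted p = 0.0952 for each tumor). Ccl8, in 7.54% and 6.80% of MC38 and in 12.9% and 20% of Panc02-SIY macrophages, and Ccl24, in 0.977% and 2.72% and in 4.33% and 7.90%, did not pass with radiation. Between the tumors, the shares of Ccl2, Ccl7 and Ccl12 were larger in MC38 in NT and in RT (exact permutation adjusted p = 0.0714 for each). That of Ccl8 was smaller in MC38 in RT (exact permutation adjusted p = 0.0952) and did not pass in NT (0.241). Ccl24 did not pass in NT (0.163) or RT (0.132). In T cells thinned alike, Ccl2 was found in 4.35% and 13.5% of MC38 NT and RT and in 0.0599% and 0.19% of Panc02-SIY barcodes, from 3 of 69, 13 of 96, 2 of 3339 and 5 of 2637 barcodes. For Ccl7 the T cell shares of MC38 NT and RT were 7.25% and 8.33% and for Ccl12 5.8% and 6.25%, and no T cell share was tested. Before thinning, the T cells with at least 1000 UMIs had medians of 5681 and 3492 UMIs in MC38 and 8125 and 6018 in Panc02-SIY, and the macrophages 25031, 20832, 4655 and 10332. The radiation differences in share did not hold in MC38 with all barcodes kept, where Ccl2 differed by 2.45 percentage points (exact permutation adjusted p = 0.208) and Ccl12 by -0.743 (0.771). At the deposited depth Ccl2 was found in 70% and 75.2% of MC38 and in 12.7% and 16.2% of Panc02-SIY macrophages.

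Ccl2 rose in the monocytes of irradiated MC38 tumors, most of which lay in clusters 5 and 11 with the macrophages. Its level was 1477, 2010, 2633 and 2141 CPM in the 4 RT libraries against 550, 951, 792 and 529 CPM in NT. The lowest RT library was above the highest NT library, and the fitted rise was 2.97-fold (log2 1.57, SE 0.23, edgeR adjusted p = 0.00677). Only 9 of the 7641 genes tested were called higher here (0.118%), with 593 genes at an unadjusted p below 0.05, and 2.89% of genes had all RT libraries above all NT libraries. Ccl2 stayed called with any 1 library left out (log2 1.43 to 1.75) and without shared barcodes (1.44, edgeR adjusted p = 0.0404), and it did not pass with all barcodes (1.00, 0.103). At 1000 UMIs per barcode, 50 of 183 MC38 NT monocytes (27.3%) and 127 of 295 MC38 RT monocytes (43.1%) had a UMI of Ccl2, as pooled shares without a test (63.3% and 75.2% before thinning).

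Ccl12 and Ccl7 were higher in the same MC38 monocytes but did not pass. Ccl12 was at 647, 585, 589 and 436 CPM in RT against 45.6, 357, 185 and 59.2 CPM in NT, with no overlap (log2 1.79, SE 0.50, edgeR adjusted p = 0.367). Without shared barcodes Ccl12 passed (2.01, edgeR adjusted p = 0.0276). Ccl7 was at 309, 288, 489 and 566 CPM against 212, 171, 296 and 131 CPM, and 1 NT library lay above 1 RT library (log2 1.06, SE 0.52, edgeR adjusted p = 0.658). Ccl24 was at 120, 8.46, 145 and 4.43 CPM in RT and at 113, 351, 12.6 and 77.4 CPM in NT, with the spread within each group larger than the difference (log2 -1.01, SE 1.27, edgeR adjusted p = 0.912).

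In Panc02-SIY monocytes no member was called by edgeR and 2 by DESeq2, where edgeR called 2.89% of genes higher and 1413 genes had an unadjusted p below 0.05. Ccl12 was at 31.9, 33.6, 18.4 and 50.7 CPM in RT against 0, 3.51, 6.22 and 0.953 CPM in NT. Every RT library was above every NT library, as for 5.78% of the genes tested. Ccl12 was at the threshold and did not pass (log2 3.45, SE 1.03, edgeR adjusted p = 0.10), resting on 7 UMIs in NT and 243 in RT. It passed with DESeq2 (adjusted p = 0.00644), with all barcodes and without shared ones. Ccl2 was at 373, 186, 272 and 317 CPM against 134, 200, 199 and 152 CPM (log2 0.65, SE 0.24, edgeR adjusted p = 0.156), and 1 RT library lay below 2 NT libraries.

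Ccl24 was at 871, 164, 362 and 562 CPM in RT against 0, 253, 31.1 and 9.53 CPM in NT Panc02-SIY monocytes (log2 2.54, SE 1.25, edgeR adjusted p = 0.307). NT library 2 was above RT library 2, and the other 3 RT libraries were above all of NT. Ccl7 was at 186, 16, 68.4 and 78.4 CPM against 0, 15.8, 31.1 and 27.6 CPM (log2 1.80, SE 0.69, edgeR adjusted p = 0.182). Ccl8 did not pass the filter on low counts in monocytes and was not tested there.

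**Figure D4:**
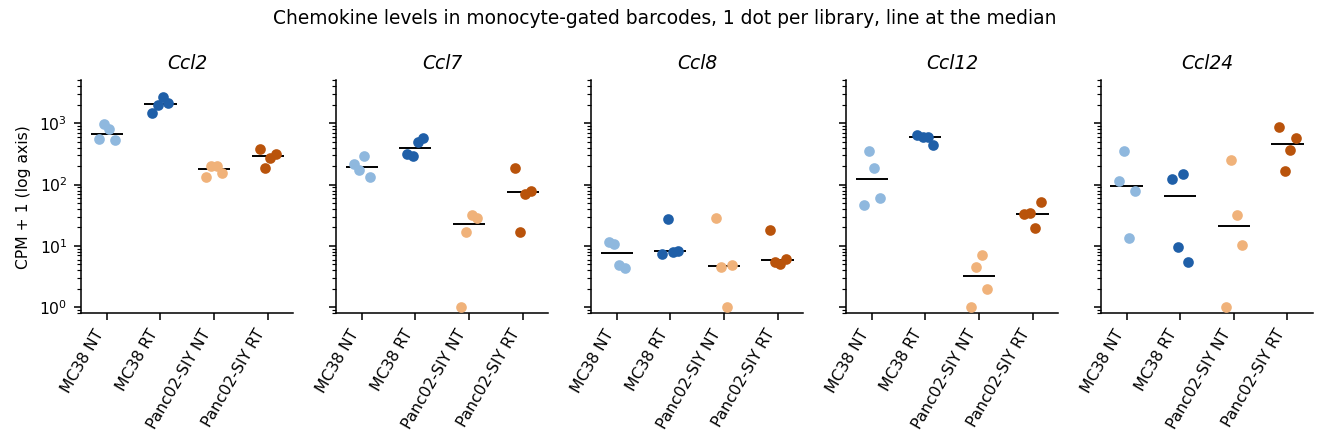
Level of each chemokine in monocytes (CPM + 1, log axis), with 1 dot per library and a line at the median of the 4 libraries of each group. Ccl2 lies at 1477 CPM or more in all MC38 RT libraries and at 951 CPM or less in all MC38 NT libraries, and Ccl12 in Panc02-SIY at 6.22 CPM or less in NT and at 18.4 CPM or more in RT.

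Monocytes of the 2 tumors, which lay mainly in clusters 5 and 11 in MC38 and in cluster 10 in Panc02-SIY, differed in Ccl2, Ccl7 and Ccl12. In NT, Ccl2 was 4.44-fold higher in MC38 (log2 2.15, SE 0.25, edgeR adjusted p = 4.25e-06), Ccl7 9.76-fold (3.29, SE 0.68, 0.00313) and Ccl12 59.7-fold (5.90, SE 0.90, 4.08e-04). In all 3, every MC38 library was above every Panc02-SIY library, as for 9.66% of genes. So 3 of the 4 members tested were called, against 18.3% of all genes. In RT the ratios were 8.39-fold for Ccl2 (3.07, SE 0.25, edgeR adjusted p = 5.66e-08), 5.86-fold for Ccl7 (2.55, SE 0.55, 0.0036) and 18.9-fold for Ccl12 (4.24, SE 0.56, 1.22e-04), against 18.8% of all genes called higher. In RT, 10.3% of genes had every MC38 library above every Panc02-SIY library. Ccl24 did not pass in NT (0.86, SE 1.29, edgeR adjusted p = 0.663) or in RT (-2.69, SE 1.24, 0.119). Without shared barcodes, Ccl12 remained called in NT (4.11) while Ccl2 (0.47, edgeR adjusted p = 0.534) and Ccl7 (1.69, 0.507) did not, and in RT Ccl2 (1.41, 0.00152) and Ccl12 (2.91, 6.04e-07) remained called while Ccl7 (1.74, 0.133) did not. No interaction passed in monocytes, for any gene (0.0%, with 668 of 7641 at an unadjusted p below 0.05), and that of Ccl2 had log2 0.92 (SE 0.33, edgeR adjusted p = 0.449).

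Summed over all CD45+ barcodes, radiation raised 4 members in Panc02-SIY tumors and none by the call in MC38. In such sums more cells of a class and more RNA per cell cannot be told apart. Monocytes were 2.61% ± 1.31 of Panc02-SIY NT and 7.35% ± 1.36 of Panc02-SIY RT barcodes, and 14.5% ± 4.93 and 23.2% ± 2.04 of MC38 barcodes (SD, n = 4 libraries, exact two-sided permutation p = 0.0286, adjusted p = 0.0429 for each). Macrophages were 18.2% and 13.4% of Panc02-SIY barcodes (exact permutation p = 0.4) and 56.3% and 43.6% of MC38 barcodes (exact permutation p = 0.0571, adjusted p = 0.0762). The share of barcodes gated as monocytes thus differed with treatment in both tumors. Mast cells and basophils were 0.599% of Panc02-SIY NT and 0.614% of RT barcodes (exact permutation p = 0.943). They held 1401 of 3357 Ccl2 UMIs in NT and 3308 of 6326 in RT, and 921 of 1698 and 1895 of 3058 Ccl7 UMIs. The part of any class in the summed levels was not tested. In MC38 the class shares rest on keeping each shared barcode in its richest library, and no other barcode set was compared. Most MC38 monocytes also lay in clusters 5 and 11 with the macrophages.

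Ccl12 in all CD45+ barcodes was at 10.4, 9.49, 10.3 and 19.1 CPM in Panc02-SIY RT against 1.54, 4.55, 3.3 and 4.01 CPM in NT, a 3.34-fold rise (log2 1.74, SE 0.36, edgeR adjusted p = 0.00582). Ccl24 was at 166, 46.3, 106 and 96.2 CPM against 2.93, 37.3, 6.26 and 11.1 CPM (log2 2.70, SE 1.02, edgeR adjusted p = 0.0997). For these 2 genes every RT library was above every NT library, as for 10.7% of the genes tested. Ccl2 was at 108, 60.5, 92.6 and 144 CPM against 19.4, 74.9, 42.5 and 35.0 CPM (log2 1.15, SE 0.33, edgeR adjusted p = 0.0293), and Ccl7 at 71.7, 28.5, 48.0 and 64.5 CPM against 17.7, 32.4, 23.5 and 18.0 CPM (1.13, SE 0.30, 0.0215). In both, RT library 2 lay under NT library 2 and the other RT libraries were above all of NT.

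The count of 4 of 5 members compares with 7.68% of 12446 genes called higher in the same test. Ccl24 lost its call without any 1 of 6 of the 8 Panc02-SIY libraries (edgeR adjusted p of 0.121 to 0.21), the exceptions being NT library 2 and RT library 2, and Ccl2 lost its call without shared barcodes (log2 1.01, edgeR adjusted p = 0.16). Ccl8 was at 89.9, 49.5, 75.1 and 62.0 CPM against 18.8, 64.2, 38.2 and 19.2 CPM and did not pass (0.88, SE 0.54, 0.318).

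In all MC38 CD45+ barcodes Ccl2 was at 1516, 1302, 1486 and 1524 CPM in RT against 904, 791, 1057 and 692 CPM in NT. All RT libraries were above all NT libraries, as for 6.16% of genes, and the difference did not pass (log2 0.85, SE 0.32, edgeR adjusted p = 0.11), with 7.24% of genes called higher. Ccl7 (0.60, edgeR adjusted p = 0.213), Ccl8 (0.55, 0.577), Ccl12 (0.77, 0.126) and Ccl24 (1.94, 0.278) did not pass either, while DESeq2 called 2 members, and 3087 genes had an unadjusted p below 0.05 in edgeR. Between the tumors Ccl2, Ccl7, Ccl8 and Ccl12 were called higher in MC38 in NT (29.1% of all genes) and in RT (29.9%), from 3.83-fold for Ccl8 in RT to 172-fold for Ccl12 in NT. The MC38 libraries were all above those of Panc02-SIY for Ccl2, Ccl7 and Ccl12 in both and for Ccl8 in NT, as for 21.3% of genes in NT and 15.6% in RT. No interaction of a member passed, where 0.345% of genes did. The Ccl8 calls were lost without shared barcodes (0.23, edgeR adjusted p = 0.788 in NT and -0.17, 0.866 in RT).

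**Figure D5:**
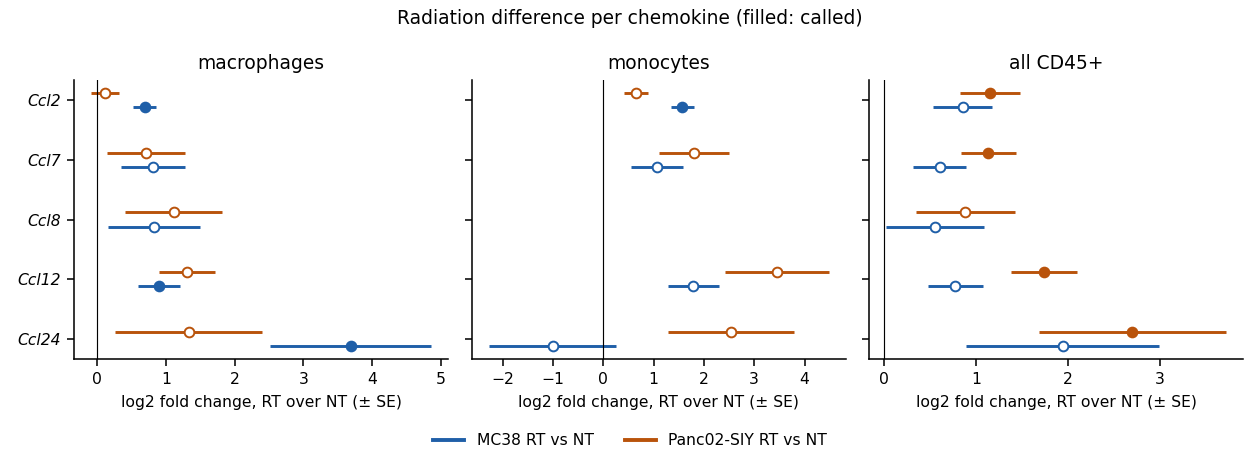
Log2 fold change of RT over NT for each chemokine (points) with its standard error (bars), from the edgeR fit in macrophages, monocytes and all CD45+ barcodes, with MC38 in blue and Panc02-SIY in orange. Filled points were called, and Ccl2 in monocytes of MC38 (1.57) and Ccl12 in all CD45+ barcodes of Panc02-SIY (1.74) are among them, while Ccl8 in monocytes was not tested.

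Dendritic cells, which present tumor antigen to T cells, held little of these chemokines in Panc02-SIY tumors but Ccl24 after radiation, which did not pass the test. Ccl2 was at 8.5, 47.2, 45.2 and 79.9 CPM in Panc02-SIY NT and at 16, 39.0, 21.4 and 21.7 CPM in RT dendritic cells, with no call (log2 -1.0, SE 0.47, edgeR adjusted p = 0.511). Ccl24 was at 0, 0, 2.06 and 1.51 CPM in NT, which is 3 UMIs in all, and at 0, 55.6, 250 and 121 CPM in RT. The 3 higher RT libraries were above all NT libraries, RT library 1 had 0 UMIs among 23 barcodes, and the difference did not pass (edgeR adjusted p = 0.144). Ccl12 had 0 UMIs in NT and at most 8.40 CPM in RT (edgeR adjusted p = 0.299). None of the 5 members was called by edgeR and 1 by DESeq2, where edgeR called 0.792% of the 10233 genes tested higher and 1043 genes had an unadjusted p below 0.05. In MC38, too few libraries held 10 dendritic cells for a test. NT library 4 (12 barcodes) had 21.5 CPM of Ccl2, 57.3 of Ccl7 and 14.3 of Ccl12. RT library 4 (21 barcodes) had 179, 40.4 and 62.8 CPM.

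In neutrophils of Panc02-SIY tumors no member passed the filter on low counts. Their levels were at most 31.6 CPM for Ccl2, 10.4 for Ccl7, 15.7 for Ccl12 and 45.6 for Ccl24, and Ccl8 reached 93.9 CPM in 1 library with a median of 9.75 CPM. The neutrophil median was below the macrophage median of the same tumors for all 5 genes.

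The members were found together in MC38 macrophages. At 1000 UMIs per barcode, Ccl2 was found in a median of 65.5% of the barcodes with a UMI of Ccl7 and in 30.9% of those without, and the share was higher with Ccl7 in 8 of 8 libraries. For Ccl2 with Ccl12 the shares were 61.3% and 32.2% (8 of 8 libraries), and for Ccl12 with Ccl7 they were 46.3% and 19.4% (8 of 8). Ccl24 was found in only 5 of 659 MC38 NT and 11 of 507 MC38 RT macrophages at this depth, too few to read with the other members. In Panc02-SIY it was found in a median of 6.93% of the macrophages with Ccl2 and in 2.26% of those without (higher with Ccl2 in 3 of 4 libraries), and in 15.4% of those with Ccl12 and 2.25% of those without (3 of 3). In Panc02-SIY macrophages, Ccl12 was found in 12.3% of barcodes with Ccl8 and in 2.89% without (8 of 8 libraries), and Ccl7 in 11.2% and 2.22% (7 of 8). Barcodes of a library are not replicates, and barcodes with more transcripts from other cells may hold several members at once, so these shares carry no test.

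Ccl7 and Ccl12 were below the Ccl2 level in every MC38 macrophage sum, and Ccl8 and Ccl24 varied more against it. In MC38, Ccl7 was at 0.624 to 0.976 of the Ccl2 level over the 8 libraries and Ccl12 at 0.477 to 0.953. Ccl8 was at 0.0248 to 0.421 of Ccl2 in MC38 but at 1.05 to 13.5 times Ccl2 in Panc02-SIY, so that Ccl8 exceeded Ccl2 in every Panc02-SIY library and in no MC38 library. Ccl24 was at 0.00147 to 0.0392 of Ccl2 in MC38 NT, at 0.0128 to 0.272 in MC38 RT, at 0.368 to 1.83 in Panc02-SIY NT and at 1.40 to 3.03 in RT.

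A few barcodes held most of the UMIs of the rarer members. The top 10% of macrophages in a library by Ccl2 UMIs held a median of 65.0% of its UMIs in MC38 NT and 61.7% in MC38 RT. For Ccl8 the same share was 96.1% and 96.7%, and for Ccl24 it was 99.8% in MC38 RT. In Panc02-SIY, where macrophages were shallower, the share was 96.7% in NT and 91.6% in RT for Ccl2, and 87.9% and 82.0% for Ccl8. The order of Ccl2 and Ccl8 thus reversed between the tumors. These shares follow detection and depth as well as expression.

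Macrophage states carried different members. State genes were read at 1000 UMIs per barcode, as a description over libraries. In Panc02-SIY, macrophages with a UMI of Cxcl9, an interferon-gamma-induced chemokine, held a median of 704 CPM of Ccl8 against 205 CPM without (higher in 8 of 8 libraries). Those with H2-Ab1, an MHC class II chain, held 666 against 104 CPM (7 of 8), and those with Mrc1, the mannose receptor CD206, 1174 against 439 CPM (7 of 8).

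Macrophages of Panc02-SIY with Fcrl5, an Fc receptor-like gene, were low in every member, each being higher in at most 1 of 6 libraries. They held a median of 55.6 CPM of Ccl8 against 501 CPM without Fcrl5 (higher in 0 of 6), and their medians of Ccl2, Ccl7, Ccl12 and Ccl24 were 0. Proliferating macrophages (Mki67) of Panc02-SIY held 155 against 325 CPM of Ccl8 (higher in 0 of 4 libraries).

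In MC38, macrophages with Spp1 (osteopontin) held a median of 1400 CPM of Ccl2 against 778 CPM without (higher in 7 of 7 libraries). Those with Ly6c2, a monocyte gene, held 0 against 183 CPM of Ccl8 (higher in 0 of 6). Macrophages with Mrc1 held 962 against 548 CPM of Ccl12 (higher in 5 of 5). Arg1 (arginase) split Ccl2 less evenly, at 1067 against 803 CPM (higher in 5 of 8 libraries).

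Receptors for these ligands were read from lists chosen for the pathway. Ccr2, the receptor of Ccl2, Ccl7 and Ccl12, was not called with radiation in macrophages of MC38 (log2 0.41, SE 0.77, edgeR adjusted p = 0.82) or of Panc02-SIY (0.64, SE 0.99, 0.83), and in monocytes it was called higher in Panc02-SIY (0.60, SE 0.19, 0.099) and not in MC38 (-0.27, SE 0.19, 0.79). In untreated tumors Ccr2 was higher in MC38 in monocytes (0.92, SE 0.19, edgeR adjusted p = 0.0012) and in macrophages (2.98, SE 0.95, 0.022). In irradiated tumors it was higher in MC38 in macrophages (2.75, SE 0.87, edgeR adjusted p = 0.021) and was not called in monocytes (0.05, SE 0.19, 0.86). Of 9 receptors and decoys, 5 were tested in macrophages, and all 5 were called higher in MC38 NT than in Panc02-SIY NT (median log2 2.37 against 0 over all genes, with 23.4% of genes called higher), among them Ccr1 (2.92, edgeR adjusted p = 3.9e-04) and Ccrl2 (2.37, 7.8e-06). In Panc02-SIY monocytes, Ccr1 was called higher in RT (1.20, edgeR adjusted p = 0.0012).

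Other CC chemokine ligands are made by the same cells and were counted beside the members. Of 15 on the list, 6 were tested in macrophages, and 0 were called with radiation in either tumor (median log2 0.34 in MC38 and -0.17 in Panc02-SIY, against medians over the 5 members of 0.82 and 1.11). Between untreated tumors 1 of the 6 was called higher in MC38, Ccl9 (1.73, edgeR adjusted p = 0.089). In MC38 macrophages, where 7.42% of all genes were called higher, radiation raised 4 of 11 interferon regulators tested, 3 of 10 NF-kB and AP-1 regulators, 2 of 9 IL-4 and STAT6 genes and 2 of 9 genes of monocyte and macrophage growth and egress, and lowered 0 of each. In Panc02-SIY macrophages, where 2.12% of all genes were called higher, the counts of the same lists were 0 of 11, 1 of 10, 2 of 9 and 1 of 9. Mrc1, Chil3 and Cd209a of the IL-4 and STAT6 list and Csf1r of the growth and egress list were themselves class markers. Of 12 tissue dissociation and immediate early genes, which can respond to the digestion of the tissue, radiation raised 5 in MC38 macrophages and 1 in Panc02-SIY. Their median log2 in MC38 was 0.44 against 0.03 over all genes. Between the tumors, 8 of the 12 were called higher in MC38 NT macrophages (median log2 0.93, with 23.4% of all genes called higher). In RT macrophages 10 were (1.26, with 24.8%). The part of these genes in the chemokine levels was not tested.

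The genes most like each member were read as Pearson correlations over 27 class-by-group means, which share libraries and depth. Ccl2 and Ccl7 were each other's nearest gene among 6084 (r = 0.903). Ccl12 was nearest to Arg1 (0.951), Trem2 (0.908) and Apoe (0.893), all macrophage genes, while Ccl8 was nearest to Pf4 (0.879) and Ms4a7 (0.825), and Ccl24 to Clec4a1 (0.825) and F13a1 (0.819). Trem2, Apoe and Ms4a7 were themselves among the markers that defined the macrophage class, and Arg1 and Pf4 were not. Within macrophages, after group means were subtracted from the 16 libraries, Ccl2 tracked Ccl12 (0.589) and Ccl7 (0.499) and ran opposite to Ccl8 (-0.501). Its nearest genes there were Ap1m1 (0.804), Mtch2 (0.762) and Ccl3 (0.752). With 16 points such values are a description only.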

How the data were processed

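Single-cell RNA was captured with 10x 3' chemistry from 16 libraries of CD45+ tumor leukocytes. Per the labels, the authors made the deposited UMI counts per gene and barcode with bcl2fastq 2.20.0 and Cell Ranger 3.1.0 on mm10. These 3' counts do not depend on transcript length. Kept UMIs per library ranged from 1385711 to 43685374, and intervals and errors between libraries cover what these libraries vary by.

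Each barcode was kept in its richest library and given a class where at least 2 markers were found, the summed level reached 5 per 10000 UMIs and the relative level 0.25. A barcode was set aside as mixed where a class of another lineage reached 0.5 or more of the best, or where a best-scoring monocyte had lymphocyte markers. This was the treatment of doublets in the reported fit. Macrophages, monocytes and dendritic cells shared a lineage, as did T and NK cells, so barcodes high in 2 classes of a lineage were kept under the best. Counts were summed per library and class (at least 10 barcodes) and fitted for all 4 groups with edgeR 4.0.16 (filterByExpr, minimum count 10, or 3 in dendritic cells, TMM, robust quasi-likelihood test). Adjusted p-values are Benjamini-Hochberg over all genes of a class and a call needed adjusted p below 0.1 and fold above 1.3. Shares were compared by exact permutation tests over libraries. Levels, as CPM, are unscaled by TMM. Promoters and gene positions came from RefSeq (GRCm38.p6) and GENCODE annotation, and of the 5 members Ccl8 and Ccl12 were in the promoter table. The alternatives included DESeq2 1.42.0, other barcode sets, thinning and leaving out each library. The test was tested on simulated data for MC38 RT against NT, where it recovered 78.9% of 109 genes changed by log2 1 in macrophages (9953 genes) and 57.6% of 92 in monocytes (7393 genes). It also made 14 false calls in macrophages and 12 in monocytes. R 4.3.3, Python 3.11.15, scanpy 1.11.5 and scipy 1.17.1 were used.

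The members, markers and gene lists were chosen with earlier results of these data known, and the 5 members named were all reported. The lists were other CC chemokine ligands, receptors and decoys, growth and egress genes, NF-kB and AP-1 regulators, interferon regulators, IL-4 and STAT6 genes, and tissue dissociation genes. The removal of barcodes near the class border, the single pooled class and the mast cell test were added after seeing the data. A gene of the receptor list is not reported here by name.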

Additional observations from a re-analysis of the deposited data

Results flagged for a closer look

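In 7 of 60 sets of 4 libraries, 1 library stood far from the other 3, where chance gives about 1 in 20. Panc02-SIY NT library 2 stood apart for 3 of them. Its Ccl2 in macrophages was 79.4 CPM against 62.0 to 64.2 CPM in the other 3 libraries, its Ccl24 in macrophages 146 CPM against 22.8 to 42.8 CPM, and its Ccl24 in monocytes 253 CPM against 0 to 31.1 CPM.

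Ccl8 in monocytes, where it was low, stood apart in 1 library of 3 groups. It was at 26.8 CPM in MC38 RT library 2 against 6.31 to 7.39 CPM, at 27.9 CPM in Panc02-SIY NT library 1 against 0 to 3.81 CPM, and at 17.4 CPM in Panc02-SIY RT library 1 against 4.08 to 5.04 CPM. Ccl12 summed over all CD45+ barcodes was 19.1 CPM in Panc02-SIY RT library 4 against 9.49 to 10.4 CPM.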

How the results depend on the processing

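Counts of members called depended on the barcodes used, the groups fitted, the tool and single libraries, and no cause of a change was tested. In MC38 macrophages, 3 members rose with radiation, 1 to 2 with any 1 library left out, 1 at an adjusted p of 0.05, with no count filter, with all barcodes or with thinned libraries, and 0 with only the 2 groups fitted or without shared barcodes. In Panc02-SIY macrophages the count of 0 became 1 with DESeq2, with 2 groups, with all barcodes, without shared ones and with clusters, and 2 with the pooled class. Between the tumors, the 3 called in macrophages stayed at 3 to 4 (NT) and 3 (RT) over left-out libraries, with 4 in NT without shared barcodes (Ccl8 lower in MC38) and 5 in RT (Ccl8 and Ccl24 lower in MC38). In MC38 monocytes the count of 1 was 1 to 2 over left-out libraries, 0 with all barcodes and 2 without shared ones. In Panc02-SIY monocytes the count of 0 was 0 to 2 over left-out libraries, 1 with library size scaling, 2 groups or no shared barcodes, and 2 with DESeq2 or all barcodes. Between the tumors in monocytes the count of 3 was 3 in NT and 3 to 4 in RT over left-out libraries, 1 in NT without shared barcodes and 5 in RT with all barcodes. In dendritic cells the count of 0 was 0 to 1 over left-out libraries and 1 with DESeq2 or the replicate block. Over all CD45+ barcodes, MC38 RT gave 0 (0 to 1 over left-out libraries, 2 with DESeq2, 1 with 2 groups), Panc02-SIY RT 4 (3 to 4), NT 4 (4 to 5) and RT 4 (4 to 4). For shares of macrophages the counts were 3 in MC38 (0 to 3 over left-out libraries, 0 unthinned, 1 at 2000 UMIs, 0 with all barcodes), 2 in Panc02-SIY (0 to 3, 1, 1 and 0), 3 between NT (0 to 4) and 4 between RT tumors (0 to 5), where 3 libraries against 4 cannot go below an exact p of 0.0571.

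Directions turned where no call was made in the reported fit, except for Ccl8 between RT tumors over all CD45+ barcodes and the share of MC38 macrophages with Ccl12. Ccl24 between RT macrophages (0.16) became -0.04 by library size, -0.24 with the replicate block, -0.58 to 0.57 over left-out libraries, -0.17 with all barcodes, -3.02 without shared ones, -0.26 without doublets, -1.17 by clusters and -1.04 pooled. Ccl8 between NT macrophages (-0.06) became 0.05 with the block, -0.42 to 0.26 over left-out libraries, 0.25 with all barcodes, 0.09 with the cell filter, 0.12 thinned, 0.0 without the class border and 0.11 pooled, and between RT macrophages (-0.35) it was -0.67 to 0.08 and 0.2 pooled. The Ccl2 interaction in macrophages became -0.03 pooled. Ccl24 in MC38 monocytes (-1.01) was -2.26 to 0.14 over left-out libraries and 0.98 without shared barcodes, and between NT monocytes (0.86) -0.27 to 3.22 and -2.59. Over all CD45+ barcodes without shared ones, Ccl24 was -0.83 (NT) and -2.8 (RT, with -0.24 to 0.84 over left-out libraries), and Ccl8 was -0.17 (RT). Differences in share turned for Ccl8 in MC38 (-2.44 to 0.775 points over left-out libraries), Ccl12 in MC38 with all barcodes (-0.743), Ccl2 in Panc02-SIY at 2000 UMIs (-1.7) and Ccl8 between NT tumors unthinned (3.92). The reported fit did not pair libraries by replicate number. Same-numbered libraries of NT and RT had correlations of deviations of 0.0 to 0.06 in MC38 and -0.02 to 0.6 in Panc02-SIY, 2 of 4 above 0.1. Libraries with different numbers were not compared, so whether the numbers pair the Panc02-SIY libraries was not settled. Of the values for single members, 1483 kept direction and side of the threshold, 43 gained a call, 128 lost one and 37 turned.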

Other observations

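Beside Ccl2, the other 8 genes called higher in monocytes of irradiated MC38 tumors, named after their values were seen, included 3 that p53 is known to induce. Phlda3 rose by log2 3.74 (SE 0.66, edgeR adjusted p = 0.0329), Ccng1, which codes for cyclin G1, by 1.49 (SE 0.23, 0.00677) and Cdkn1a, the cell cycle inhibitor p21, by 0.89 (adjusted p = 0.0923). The others were Clec4d, a C-type lectin receptor (1.31, edgeR adjusted p = 0.0329), C5ar1, the receptor of complement C5a (1.49, 0.0854), Adam8 (1.12, 0.0973), Mxd1 (1.14, 0.0361) and Gm42047 (2.44, 0.0329).

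Of the list of IL-4 and STAT6 genes, 3 of 9 tested were called higher after radiation in Panc02-SIY monocytes and 7 of 9 had a positive log2 difference, where 2.89% of genes were called higher. Arg1 (log2 6.55, edgeR adjusted p = 0.0061) and Mrc1 (3.12, 0.054) were among the 3. Mrc1, Chil3 and Cd209a of the list were themselves among the markers that defined the classes, and Arg1 was not. Retnla, another gene of the list, was not called and was among the leading genes of cluster 10, where most of these monocytes lay. In MC38 monocytes Arg1 was at 448 ± 131 CPM in NT and 1279 ± 722 CPM in RT (SD, n = 4 libraries) and no gene of the list was called. In Panc02-SIY macrophages 2 of 9 genes were called higher, Arg1 among them (3.56, edgeR adjusted p = 0.078).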
